A study of Mus musculus with 4 samples.

Results

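Molecular chaperones and folding enzymes were examined in EML cells. This mouse lymphohematopoietic progenitor line normally needs stem cell factor (SCF), which activates the receptor KIT. The cells carried either of 2 KIT mutants known from mastocytosis, in which mast cells build up: Del417-419insY, in the extracellular part of the receptor, or D816V, in its kinase part. Both lines were made in the same way: KIT constructs in the pLXSN retroviral vector, selection with geneticin, growth without added factor until the population was autonomous, and sorting of cells that expressed KIT. RNA was taken from either line cultured without SCF or after 48 h in 250 ng/mL SCF, and the 4 groups have 1 array each: Del417-419insY without SCF, Del417-419insY with SCF, D816V without SCF and D816V with SCF. Neither wild-type KIT nor untransduced cells are among these groups, and each mutant is 1 sorted population, so a difference between the lines covers everything in which these populations differ.

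The genes were chosen by name alone: every gene with a single platform symbol that begins with Hspa, Hspb, Hspd, Hspe, Hsph or Hsp and a digit, Dnaj, Cct and a digit, Pdia, Fkbp, Ppia to Ppih, Bag and a digit, or Pfdn. This gave 62 genes with 97 probe sets, of 6404 genes with 9633 probe sets. The RefSeq annotation of assembly GRCm38.p6 has 122 protein-coding genes with such names, and the other 60 were not analysed here, among them Hspa5, Hspa1a, Hspd1, Hsp90ab1 and Ppia. The 62 genes were 7 of the Hsp70 family (Hspa), 24 Hsp40 genes (3 Dnaja, 6 Dnajb and 15 Dnajc), 2 Hsp90 genes, 2 Hspb genes, Hspe1 and Hsph1, 4 subunits of the chaperonin TRiC (Cct), 2 protein disulfide isomerases (Pdia), 7 FK506 binding proteins (Fkbp), 5 cyclophilins (Ppi), 4 Bag genes and 3 prefoldin subunits (Pfdn). The name does not always match the function. Hspb11, also called IFT25, is a subunit of the intraflagellar transport machinery, Dnajc6 encodes auxilin, which helps to strip clathrin from vesicles, and Hspbp1 is an exchange factor of Hsp70 and not a small heat shock protein.

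Chaperones bind unfolded segments of other proteins and keep them from aggregating. Hsp70 proteins do so in cycles of ATP hydrolysis, which Hsp40 proteins stimulate through their J domain and exchange factors such as Bag proteins and Hsph1 complete; prefoldin hands actin and tubulin to TRiC, and Hsp90 finishes the folding of many kinases. In the endoplasmic reticulum (ER), where secreted and membrane proteins such as KIT fold, disulfide isomerases form disulfide bonds, and cyclophilins and FK506 binding proteins turn proline bonds. Heat shock factor induces cytosolic chaperones when proteins unfold, and the unfolded protein response, with its transcription factors XBP1 and ATF6, induces those of the ER.

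The deposited log2 values are relative: every probe set has its own zero, and a value is comparable across arrays but not across genes. A difference of 1 is 2-fold. Differences between the lines are D816V minus Del417-419insY, and SCF responses are SCF minus no SCF. Groups are unreplicated, and precision is limited by how few arrays there are. The only test was limma with genotype and SCF as additive terms, fitted to all 6404 genes; it takes the difference between the SCF responses of the lines for error and covers neither repeat arrays nor repeat populations. In 1 of 2 simulations of this fit the share of false calls was above the nominal one, so calls near the threshold are uncertain. Genes with an adjusted p under 0.05 are called. Median values over probe sets ranged from -0.20 on the D816V array with SCF to -0.02 on the Del417-419insY array without it, and the D816V array with SCF had the widest spread, an SD of 0.79 against 0.59 to 0.72. The median difference between the lines over all genes was therefore below 0, at -0.08 without and -0.14 with SCF, and centring the arrays on their medians brought it to 0.01 in both. Markers of blood cell types differed as well. Of 9 measured mast cell markers 8 were called higher in D816V cells, by 1.28 to 6.06, and none lower, with medians of 2.00 without and 1.59 with SCF. Their part in the differences of the folding genes was not tested. In bulk RNA, a change in the share of a cell type and a change in RNA per cell cannot be told apart.

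Differences between the lines came in both directions. As deposited, Hspb11, Dnajc12 and Pdia5 led the genes higher in D816V cells, and Ppic, Bag2 and Pfdn2 those lower. Of the 62 genes 9 were called higher and 8 lower in D816V cells, which is 27.4%, where 42.6% of all genes were called. In the higher direction the members stood at 14.5% against 17.9% of all genes, and in the lower direction at 12.9% against 24.7%. The median size of the difference between the lines was 0.27 over the members and 0.36 over all genes. With arrays centred on their medians 17 members were called higher and 4 lower, with 26.9% and 20.3% of all genes. The balance between the directions thus rests on the scaling. Without the SCF term in the fit 3 members were called higher and 2 lower, with 10.8% and 14.3% of all genes. The 45 uncalled members had differences from -0.39 (Hspa8) to 0.40 (Hsp90aa1).

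**Figure D1:**
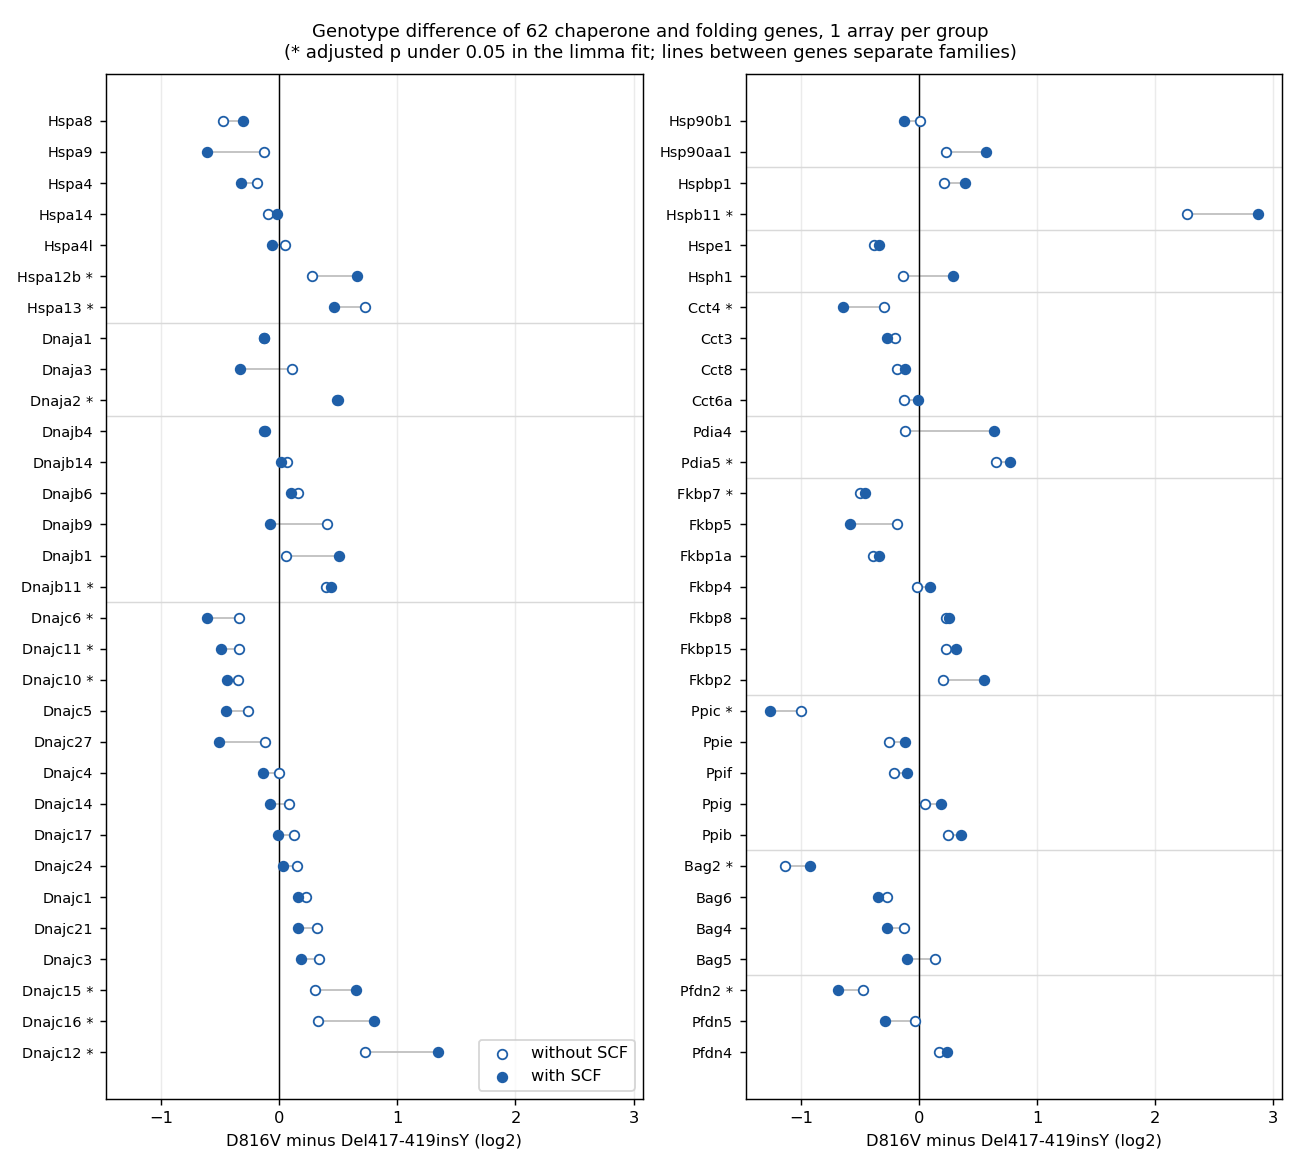
Difference between the lines for each of the 62 genes, grouped by family, without SCF (open circles) and with SCF (filled circles), as D816V minus Del417-419insY on the log2 scale; a star marks the 17 genes called by the limma fit. Hspb11, at 2.27 and 2.87, stands far to the right of all others, and Ppic and Bag2 lie furthest to the left.

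By size alone, 4 members were 1.5-fold or more higher in D816V cells without SCF (6.45%, with 12.2% of all genes) and 2 were lower (3.23%, with 12.6%). With SCF 7 were higher (11.3%, with 13.2%) and 6 lower (9.68%, with 20.4%). The conditions share no array. Over the 62 members, Pearson's r between the differences in both conditions was 0.90 and Spearman's rho 0.84, with r at 0.84 when Hspb11 was left out; over all genes r was 0.92 and rho 0.85. The points are genes read from the same arrays and are not independent. In 52 of 62 members the difference had the same sign in both conditions, which is 83.9%, against 84.8% of all genes. The difference was larger in size with SCF in 39 members, 62.9%, close to the 62.0% of all genes.

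Hspb11 gave the largest difference in the values as deposited. Its value was 0.67 without and 0.49 with SCF in Del417-419insY cells, and 2.94 and 3.36 in D816V cells. Both D816V arrays stood above both Del417-419insY arrays, by 5.94-fold on average (log2 difference 2.57, SE 0.18, limma adjusted p = 0.00072). The size depended on the scaling: the log2 difference was 1.91 after quantile normalization and 1.14 after cyclic loess, where Dnajc12 stood above it at 1.24. Hspb11 was called under both. Both methods treat values of different probe sets as comparable, which these relative values are not, so the sizes under them are uncertain. Hspb11 has 1 probe set, so no other probe set checks it.

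Dnajc12, a cytosolic Hsp40 protein known to bind the aromatic amino acid hydroxylases, was the next highest. It stood at -0.55 without and -1.05 with SCF in Del417-419insY cells and at 0.17 and 0.29 in D816V cells. The arrays of the lines did not overlap, and the mean difference was 1.03 (SE 0.18, limma adjusted p = 0.011). Tph1, the tryptophan hydroxylase that is 1 of these client enzymes and a mast cell marker, differed by 5.36 in the same direction.

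The remaining 7 genes called higher were mostly Hsp40 and ER genes. Pdia5, a disulfide isomerase of the ER, was at -0.81 and -0.63 in Del417-419insY cells without and with SCF and at -0.17 and 0.14 in D816V cells, a difference of 0.71 (SE 0.12, limma adjusted p = 0.0099). Hspa13, an Hsp70-like ATPase of microsomes, was at -0.41 and -0.55 against 0.31 and -0.09, a difference of 0.59 (SE 0.13, adjusted p = 0.021), and its 4 probe sets ranged from 0.47 to 0.73. Every probe set thus gave the same direction. Dnajc16, a membrane-anchored Hsp40 protein, was at -0.19 and -0.21 against 0.14 and 0.59, with a difference of 0.56. Dnajc15, an Hsp40 protein of the inner mitochondrial membrane, was at -0.34 and -0.36 against -0.03 and 0.28 (0.48). Dnajb11, the ER Hsp40 protein ERdj3 that works with the ER Hsp70, was at -0.42 and -0.46 against -0.03 and -0.01 (0.42). Their adjusted p-values in the limma fit were 0.039, 0.043 and 0.038. Hspa12b, a distant Hsp70 relative, was called at the edge of the threshold: it stood at -0.42 and 0.02 against -0.14 and 0.69, so the groups overlapped across conditions, with a difference of 0.47 within them.

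The call of Dnaja2, a cytosolic Hsp40 partner of Hsp70, rested on 1 of its 3 probe sets. Its values were -0.37 and -0.65 in the Del417-419insY line, against 0.12 and -0.16 in D816V cells, which gives 0.49 (SE 0.11, limma adjusted p = 0.025). The probe sets gave 1.28, 0.26 and -0.06, and with their median in place of the mean the gene was not called. Of the 62 genes 24 had more than 1 probe set, and in 15 of these all probe sets had the same sign. Among the 4 called genes with more than 1 probe set, Dnaja2 was the exception.

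Among the 8 genes called lower, 2 passed 2-fold on average. Ppic, cyclophilin C of the secretory pathway, was at 3.41 and 4.08 in Del417-419insY cells without and with SCF and at 2.41 and 2.82 in D816V cells, lower by 2.19-fold (log2 difference -1.13, SE 0.13, limma adjusted p = 0.0034). The size of this difference also depended on the scaling, at -2.63 after quantile normalization and -4.23 after cyclic loess, the largest among the named members there. Both methods treat values of different probe sets as comparable, which these relative values are not, so the sizes under them are uncertain. Ppic was not called when the prior could vary with a gene's mean relative value (limma adjusted p = 0.082). Each probe set has its own zero, so that mean does not measure signal level. Bag2, a cofactor of Hsp70 that inhibits the ubiquitin ligase CHIP, was at 0.41 and 0.20 against -0.73 and -0.73, lower by 2.04-fold (-1.03, SE 0.12, adjusted p = 0.0040). Neither gene's arrays overlapped between the lines.

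The other 6 differed by under 0.6. Pfdn2, a prefoldin subunit, was at -0.21 and -0.44 against -0.69 and -1.13 (difference -0.58, limma adjusted p = 0.019). Fkbp7, an ER proline isomerase, was at 0.22 and 0.16 against -0.28 and -0.29 (-0.48, limma adjusted p = 0.027). Fkbp7 gave nearly the same difference in both conditions, -0.50 and -0.46. Dnajc6 was at -0.13 and -0.10 against -0.47 and -0.72 (-0.48), and Cct4, a TRiC subunit, at -0.34 and -0.08 against -0.63 and -0.72 (-0.47). Dnajc11 of the outer mitochondrial membrane was at -0.10 and -0.11 against -0.45 and -0.60 (-0.42), and Dnajc10, the ER reductase ERdj5, at -0.05 and 0.04 against -0.40 and -0.40 (-0.40). These last 4 had limma adjusted p-values of 0.037, 0.045, 0.042 and 0.045 and were not called once the arrays were centred or normalized by cyclic loess or quantiles; Pfdn2 was not called after cyclic loess.

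**Figure D2:**
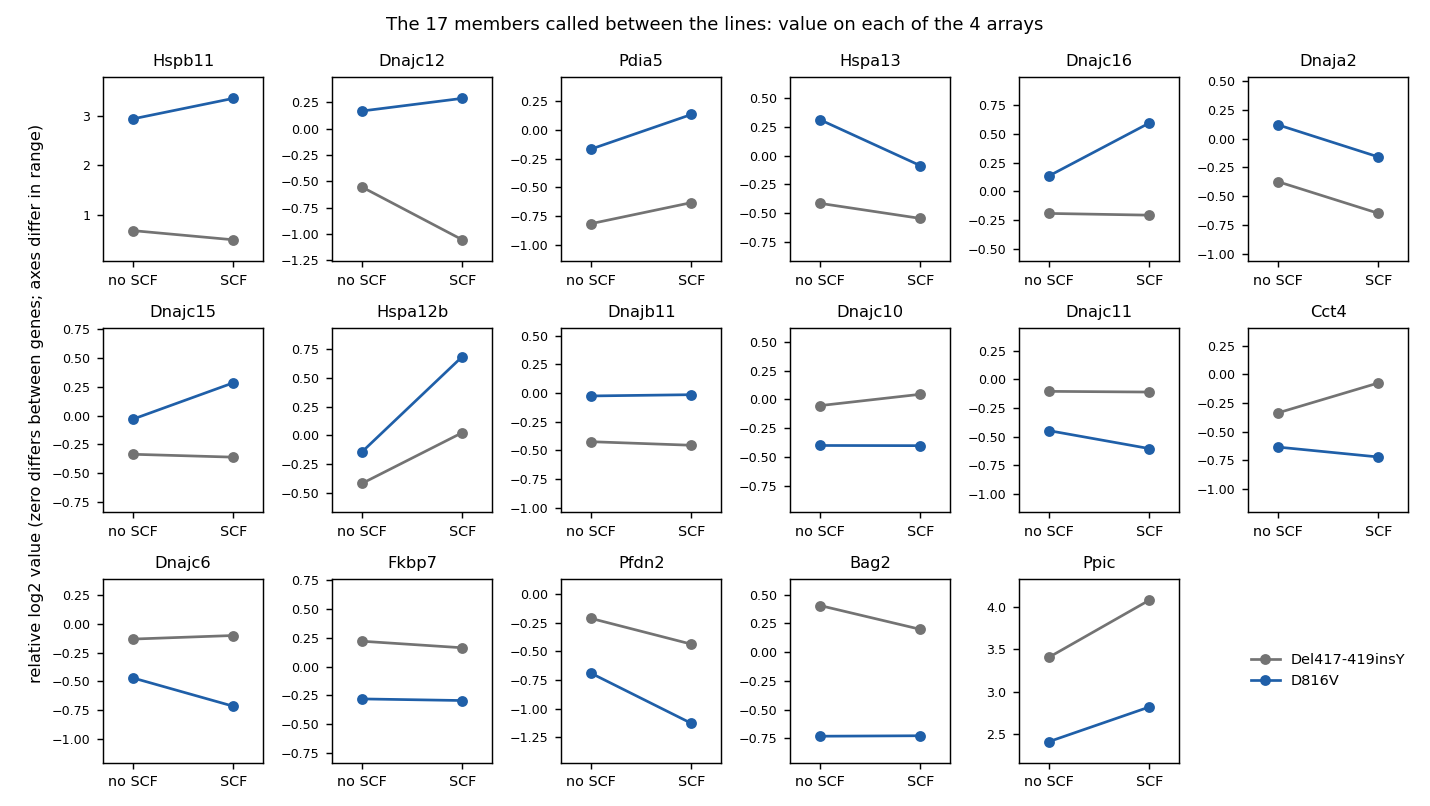
Relative log2 value on each of the 4 arrays for the 17 genes called between the lines, from the highest in D816V cells (Hspb11) to the lowest (Ppic), with Del417-419insY in grey and D816V in blue; lines join the arrays of 1 line. The lines do not cross in any panel, and the ranges of the lines overlap in that of Hspa12b alone.

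By family, Hsp70 gave 2 higher and none lower of 7 genes, Dnaja 1 and 0 of 3, Dnajb 1 and 0 of 6, and Dnajc 3 and 3 of 15. Over all genes 17.9% were higher and 24.7% lower, and families this small cannot be told from those shares. The constitutive cytosolic Hspa8 (Hsc70) was at 0.64 and 0.47 in Del417-419insY cells and at 0.16 and 0.16 in D816V cells. Its difference of -0.39 did not pass, at the edge of the threshold (limma adjusted p = 0.0501). Hspa8 was called lower after cyclic loess and quantile normalization, with the highest-mean probe set and under both other priors, but not after centring. All 4 measured TRiC subunits, Cct3, Cct4, Cct6a and Cct8, were below 0 in both conditions, with differences of -0.24, -0.47, -0.07 and -0.15, and Cct4 alone was called; with centred arrays 2 of the 4 were above 0 with SCF. TRiC works as a ring of several subunits, and these 4 did not differ by like amounts. Of Hsp90 genes neither passed: Hsp90aa1, the inducible cytosolic form, differed by 0.40 and Hsp90b1, the ER form, by -0.06. Hsp90aa1 was called higher after cyclic loess (0.57, limma adjusted p = 0.016), quantile normalization (0.55, adjusted p = 0.027) and centring (0.52, adjusted p = 0.015). Hspe1, the mitochondrial partner of the Hsp60 chaperonin, was at 0.14 and 0.01 against -0.24 and -0.33, a difference of -0.36 that did not pass (limma adjusted p = 0.054). Among cyclophilins, FK506 binding proteins, Bag and prefoldin genes the called ones were Ppic, Fkbp7, Bag2 and Pfdn2, 1 lower and none higher in each family.

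Members were grouped by where their proteins are known to work, an assignment made after the values were seen. To the ER 14 were assigned, to the cytosol and nucleus 28 and to mitochondria 6. The rest, among them Dnajc12 and Dnajc16, were placed in no group. The medians of ER members were 0.21 without and 0.17 with SCF, those of cytosolic and nuclear members -0.13 and -0.12, and those of mitochondrial members -0.17 and -0.34. The ER group held 3 genes called higher (Pdia5, Hspa13 and Dnajb11) and 3 lower (Ppic, Fkbp7 and Dnajc10) of 14, with 17.9% and 24.7% of all genes. These counts depend on the assignment, which leaves out Dnajc16, a membrane-anchored protein called higher. In the ER group 10 of 14 were above 0 without SCF, against 9 of 28 in the cytosolic and nuclear group. After cyclic loess the medians were 0.24 and 0.36 for the ER, 0.004 and 0.15 for the cytosol and nucleus, and -0.02 and -0.06 for mitochondria. The ER median was above the others under both scalings, while the cytosolic and nuclear median changed sign in both conditions. Both scalings use the same arrays and the same assignment, so the second is no independent check. Sizes after cyclic loess are also uncertain on relative values.

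The folding genes outside the name rule gave more detail on the ER. A list of ER folding and unfolded protein response genes had 38 measured members, of which 11 were called higher, 1 lower and 26 neither, where 17.9% of all genes were higher and 24.7% lower. Without the 4 that are also members by name it was 10 higher and 1 lower of 34. The median difference was 0.26 without and 0.17 with SCF, where all genes had -0.08 and -0.14. Without SCF 33 of 38 list genes were above 0, which is 86.8%, against 44.3% of all genes, and with SCF 26 were, or 68.4% against 42.0%. After cyclic loess, quantile normalization and centring 19, 18 and 17 list genes were called higher and 1 lower each time. Over all genes 25.4%, 23.8% and 26.9% were then higher. Without the SCF term 6 list genes were higher and none lower, with 10.8% and 14.3% of all genes.

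The largest of these differences was that of Ero1a, the oxidase that recharges disulfide isomerases, at 1.04, which stood at 1.31 without and 0.77 with SCF. Edem1, which sends misfolded glycoproteins to degradation, differed by 0.92, Xbp1, the transcription factor of the unfolded protein response, by 0.78, and Selenos, a component of the ER degradation machinery, by 0.76. P4hb, the founding disulfide isomerase, differed by 0.52 and Creld2, a secreted ER stress gene, by 0.63. Atf6 was the 1 gene called lower, at -0.71, with -0.41 without and -1.01 with SCF. Ddit3, the stress factor CHOP, did not pass: its difference between the lines was 1.05 without and -0.93 with SCF. The mast cell markers moved in the same direction in this contrast, and their part in the ER values was not tested.

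**Figure D3:**
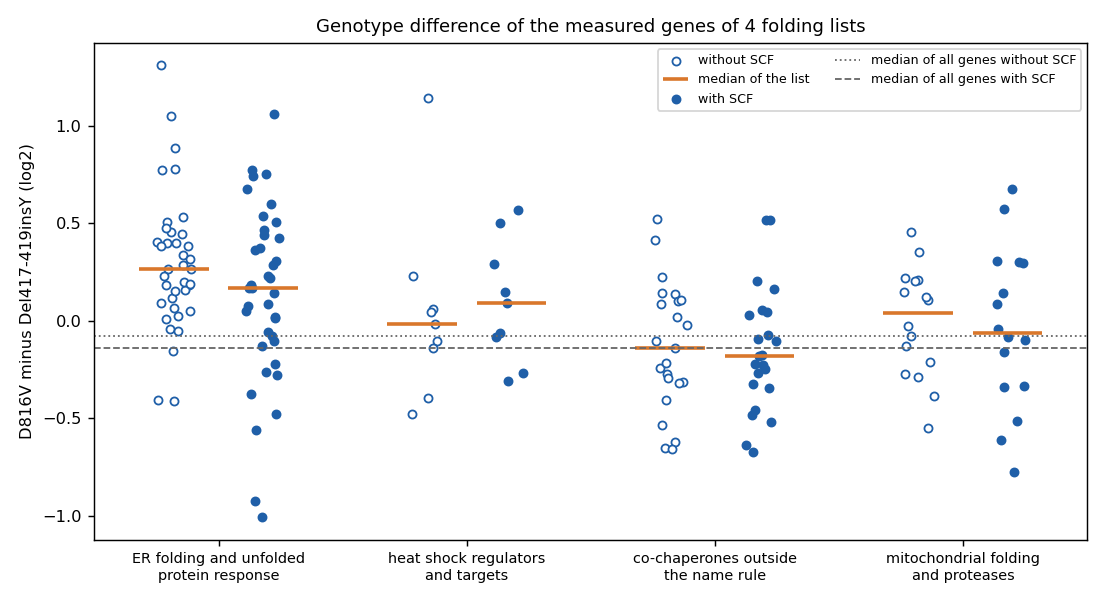
Difference between the lines for each measured gene of 4 folding lists, without SCF (open) and with SCF (filled), on the log2 scale; orange bars are list medians, and the dotted and dashed lines the medians of all genes. The ER list has its medians at 0.26 and 0.17, above those of all genes at -0.08 and -0.14, while the co-chaperone list lies at -0.14 and -0.18.

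As deposited, the other lists had no such lean. Of 23 co-chaperones and related genes without a member name 2 were called higher and 5 lower, with medians of -0.14 and -0.18. Unc45a, a myosin co-chaperone, and Tbcb, a tubulin folding cofactor, differed by 0.52 and 0.46, and Ppil3, a cyclophilin of the spliceosome, and Pdcl3, a partner of TRiC, by -0.67 and -0.63. Of 16 mitochondrial folding genes and proteases, 12 of them outside the name rule, 1 was higher and 1 lower. These paralogous exchange factors of mitochondrial Hsp70 lay on opposite sides, Grpel1 at 0.57 and Grpel2 at -0.67. Grpel1 differed by 0.45 without and 0.68 with SCF, and Grpel2 by -0.55 and -0.78. Their partner Hspa9 (mortalin), a member by name, did not pass, at -0.37. None of the 9 measured heat shock genes, of 25 listed, was called between the lines as deposited. Only 3 of these 9 lie outside the name rule, and the rest are members. After cyclic loess 3 of the 9 were higher and 1 lower, with 25.4% and 19.7% of all genes. Their medians were then 0.09 without and 0.44 with SCF, where the ER list had 0.39 and 0.40 and all genes 0.03 and 0.04. Of the 16 mitochondrial genes 5 were then higher and 1 lower, with medians of 0.19 and 0.17. Of the 23 co-chaperones 3 were higher and 3 lower, with medians of 0.005 and 0.04. Sizes after cyclic loess are uncertain on relative values.

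Promoters were searched for the sites of stress factors. The ER stress element, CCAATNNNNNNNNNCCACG, is the site through which ATF6 and XBP1 are known to act. RefSeq promoters, from 250 bases before to 50 after each start (GRCm38.p6), were found for 51 of the 62 members. On either strand the element was in 2 of these 51 genes, Dnajc3 and Hsp90b1. By promoter, it was in 2 of the 64 promoters of these genes and in 0.119% of all 32851. In the ER list it was in 7 of 32 genes with a promoter: Calr, Canx, Creld2, Dnajc3, Ero1b, Hsp90b1 and Syvn1. The mean differences of these 7 genes between the lines were 0.16, 0.10, 0.63, 0.26, 0.06, -0.06 and 0.10, and Creld2 alone was called. The match marks letters and not a bound site. The stretches around the element are given 5′ to 3′ with the matches in capitals, for Dnajc3 at chr14:118937787-118937885 (+ strand) and Hsp90b1 at chr10:86705493-86705694 (- strand), both upstream of the start, as the 2 members in which it was found.
Dnajc3: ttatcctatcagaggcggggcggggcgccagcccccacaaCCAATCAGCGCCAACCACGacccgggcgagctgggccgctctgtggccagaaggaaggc
Hsp90b1: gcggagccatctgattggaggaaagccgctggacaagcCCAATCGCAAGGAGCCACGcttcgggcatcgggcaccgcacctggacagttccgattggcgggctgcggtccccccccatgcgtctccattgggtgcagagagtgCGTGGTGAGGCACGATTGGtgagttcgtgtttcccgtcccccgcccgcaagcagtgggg

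Dnajc3 encodes an ER inhibitor of the kinase PERK, and Hsp90b1 the ER form of Hsp90 that folds integrins and Toll-like receptors. Dnajc3 was at -0.41 and -0.51 in Del417-419insY cells without and with SCF and at -0.07 and -0.33 in D816V cells, with a difference of 0.26 that did not pass (limma adjusted p = 0.13), and its 4 probe sets ranged from 0.04 to 0.67. Hsp90b1, which has 2 matches, was at -0.26 and -0.44 against -0.25 and -0.57. The gene with 2 matches thus differed by -0.06.

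Added SCF was followed by small differences. The limma fit called 0 members, as it called 0% of all genes. At an unadjusted p under 0.05 there were 10 members, 16.1%, against 18.5% of all genes, and the smallest adjusted p of a member was 0.13, that of Dnajb14. In Del417-419insY cells 1 member was 1.5-fold or more higher with SCF (1.61%, with 2.14% of all genes) and 2 were lower (3.23%, with 2.86%). In D816V cells 2 were higher (3.23%, with 2.55%) and 2 lower (3.23%, with 6.45%). With centred arrays 4 members were called for SCF, and 2 with the highest-mean probe set. Shares of all genes were not computed under these settings, so these counts cannot be set against them. Responses in the lines, which share no array, had a Pearson correlation of 0.56 over the 62 members and 0.45 over all genes, as a description. In 24 members the response was below 0 in both lines, in 14 above 0 in both, and in 24 it had opposite signs. The sign was thus shared in 61.3% of members and in 65.5% of all genes.

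**Figure D4:**
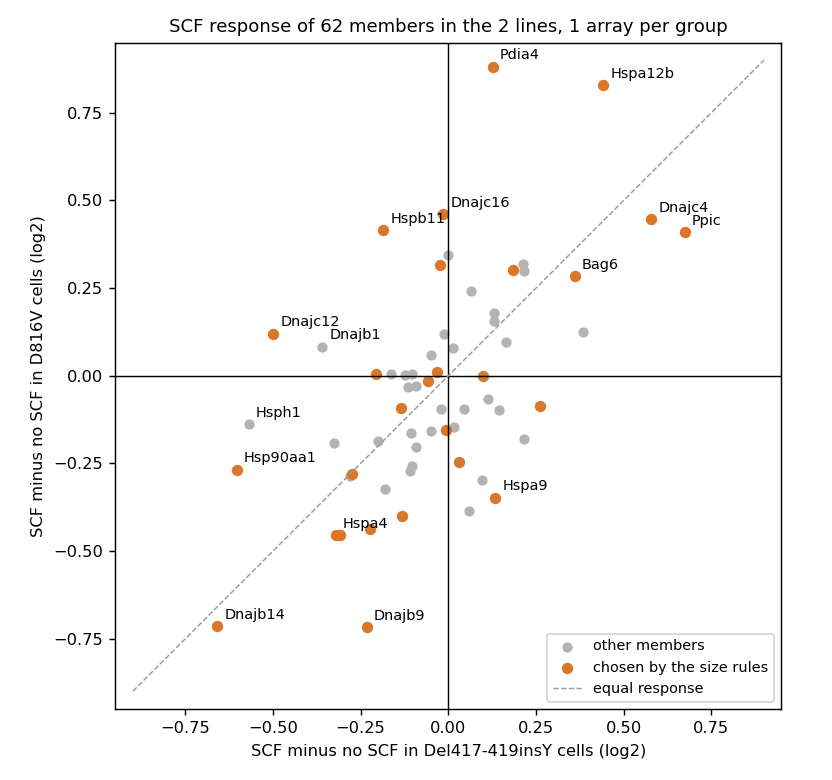
SCF response of each of the 62 genes in Del417-419insY cells (horizontal) and D816V cells (vertical), log2, 1 array per group; orange points were chosen by the size rules, and the dashed line marks equal response. Dnajb14 lies near that line at -0.66 and -0.71, while Pdia4 stands at 0.13 and 0.88, and Hsp90aa1 and Hsph1 lie further below 0 in Del417-419insY cells.

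Of the 14 members with responses above 0 in both lines, the 4 largest by rule beside Pdia4 were Hspa12b, Ppic, Dnajc4 and Bag6. Hspa12b gave responses of 0.44 (Del417-419insY) and 0.83 (D816V), and Ppic by 0.67 and 0.41. Dnajc4, an Hsp40 protein, was at 0.18 without and 0.75 with SCF in Del417-419insY cells and at 0.17 and 0.62 in D816V cells. Its levels were almost the same in the 2 lines, and its responses were 0.58 and 0.45. Bag6, which guards tail-anchored membrane proteins on their way to the ER, responded by 0.36 and 0.28. None of these responses passed the limma test, with adjusted p-values from 0.16 to 0.25.

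Pdia4 (ERp72), a disulfide isomerase of the ER, had the largest difference between the responses of the lines. It was at 0.41 without and 0.54 with SCF in Del417-419insY cells and at 0.29 and 1.17 in D816V cells. The D816V array with SCF alone stands apart from the other 3. The responses were 0.13 and 0.88, and the difference of 0.76 could not be tested with 1 array per group. Hyou1, an ER exchange factor of the ER list, showed -0.03 and 0.48. Other ER stress genes had negative responses in D816V cells: Dnajb9 (ERdj4), a target of XBP1, was at -0.07 and -0.30 in Del417-419insY and at 0.33 and -0.38 in D816V cells, a response of -0.23 and -0.72. Herpud1, which organises ER degradation, responded by 0.17 and -0.84, and Ddit3 by 0.83 and -1.15. The 38 genes of the ER list had median responses of -0.02 and -0.13, with 21 and 24 of them below 0.

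Lower with SCF in both lines was Dnajb14, an Hsp40 protein of the ER membrane. It stood at -0.05 and -0.71 in Del417-419insY cells without and with SCF and at 0.01 and -0.70 in D816V cells, so that both arrays with SCF lay below both without. Its 2 probe sets differed widely, with -1.03 and -0.29 in the Del417-419insY line, against -1.30 and -0.13 in D816V cells. They also split between the lines, at 0.50 and -0.42. Hspa4, an Hsp110-type exchange factor, responded by -0.32 and -0.46. Its 3 probe sets ranged from -1.13 to 0.14 in D816V cells, with the highest-mean probe set at 0.14. That mean is on the relative scale and does not rank probe sets by signal. Bag4, which binds Hsp70 and silences death receptors, responded by -0.31 and -0.46, with both of its probe sets below 0 in both lines. The agreement of the probe sets was thus better for Bag4 than for Dnajb14 and Hspa4.

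Heat shock genes stood lower with SCF in Del417-419insY cells on these single arrays. All 9 measured genes of the heat shock list were below 0 there, with a median of -0.36, where 44.7% of all genes were below 0. Only 3 of the 9 lie outside the name rule, so the list is largely made of members. In D816V cells 6 of the 9 were below 0, with a median of -0.14, against 56.0% of all genes. The count in Del417-419insY cells was also 9 after quantile normalization and centring, and 8 after cyclic loess. Hsp90aa1 was at -0.09 and -0.69 in Del417-419insY cells and at 0.14 and -0.13 in D816V cells, with responses of -0.60 and -0.27. Hsph1 (Hsp110), an exchange factor of Hsp70, was at -0.40 and -0.97 against -0.54 and -0.68, with responses of -0.57 and -0.14, and its 2 probe sets gave -0.64 and -0.50 in the Del417-419insY line, against 0.05 and -0.32 in D816V cells. Dnajb1 (Hsp40) was at -0.27 and -0.63 against -0.21 and -0.12, with responses of -0.36 and 0.08. Hmox1, the stress-induced haem oxygenase, gave the largest, -0.70 and -1.69, and Cacybp, a heat shock gene without a member name, -0.43 and -0.12. Neither these responses nor their differences between the lines passed or could be tested. Hspa8, Fkbp4 and Hspa4l of the same list had responses near 0, of -0.16, -0.05 and -0.05 in Del417-419insY cells.

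The heat shock element, to which heat shock factor binds, is built of repeated units that alternate in direction. Its 3-unit form, GAANNTTCNNGAA or TTCNNGAANNTTC, was in the promoter windows of 3 of the 51 members, Hsph1, Hspe1 and Dnajb6. By promoter, it was in 5 of their 64 and in 0.603% of all. The shorter form GAANNTTC or TTCNNGAA, which lies within the longer, was in 10 of 51 members, 19.6%. By promoter, it was in 12 of the 64 of these members and in 15.1% of all. A gene can have several promoters, so the share of genes is not like the share of promoters. Dnajb1 held neither form in these windows, which says only that the letters are not there, and Hsp90aa1 had no entry. The matches are shown for Hsph1, the gene of the 3 with the largest response, at chr5:149636284-149636304 (- strand, within the 50 bases after the start), and for Hspe1, which has overlapping matches, at chr1:55088019-55088116 (+ strand, upstream), with the matches in capitals.
Hsph1: cagaTTCTGGAAAGTTCtcct
Hspe1: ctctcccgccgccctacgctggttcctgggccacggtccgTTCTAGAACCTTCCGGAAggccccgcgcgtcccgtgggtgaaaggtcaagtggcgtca

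Of the 3 genes only Hsph1 stood apart, in Del417-419insY cells and on 1 untested difference between arrays. The SCF responses of Hsph1, Hspe1 and Dnajb6 were -0.57, -0.14 and -0.11 in Del417-419insY cells. In D816V cells they were -0.14, -0.09 and -0.16. Dnajb6, which holds back aggregation of polyglutamine proteins, had 2 probe sets that gave -0.80 and 0.48 in D816V cells, so its mean stands for neither.

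Mitochondrial Hsp70 and its Hsp40 partner had responses below 0 in D816V cells and above 0 in the other line. Hspa9 was at -0.26 and -0.12 in Del417-419insY cells and at -0.39 and -0.74 in D816V cells, with responses of 0.13 and -0.35. All 3 of its probe sets were below 0 in D816V cells, from -0.43 to -0.25, and none was below 0 in Del417-419insY cells. Dnaja3, the mitochondrial Hsp40 partner of Hspa9, was at -0.47 and -0.41 against -0.36 and -0.75, with responses of 0.06 and -0.39. The difference between the responses was -0.48 for Hspa9 and -0.44 for Dnaja3 and was not tested. Cell cycle genes, as a marker of growth state, had median responses of 0.03 in the Del417-419insY and -0.07 in the D816V line over 8 measured genes, and their part was not tested. Hspe1, in the same compartment, had responses of -0.14 and -0.09. Dnajc15, Grpel1 and Afg3l2 had the opposite signs, with responses of -0.03 and 0.32, -0.14 and 0.085, and -0.09 and 0.28. Grpel2 and Trap1 had the signs of Hspa9, at 0.10 and -0.13, and 0.22 and -0.02. Over the 16 genes of the mitochondrial list the median responses were -0.10 and -0.05, with 9 and 10 genes below 0. The pair thus does not stand for mitochondrial folding genes as a group.

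**Figure D5:**
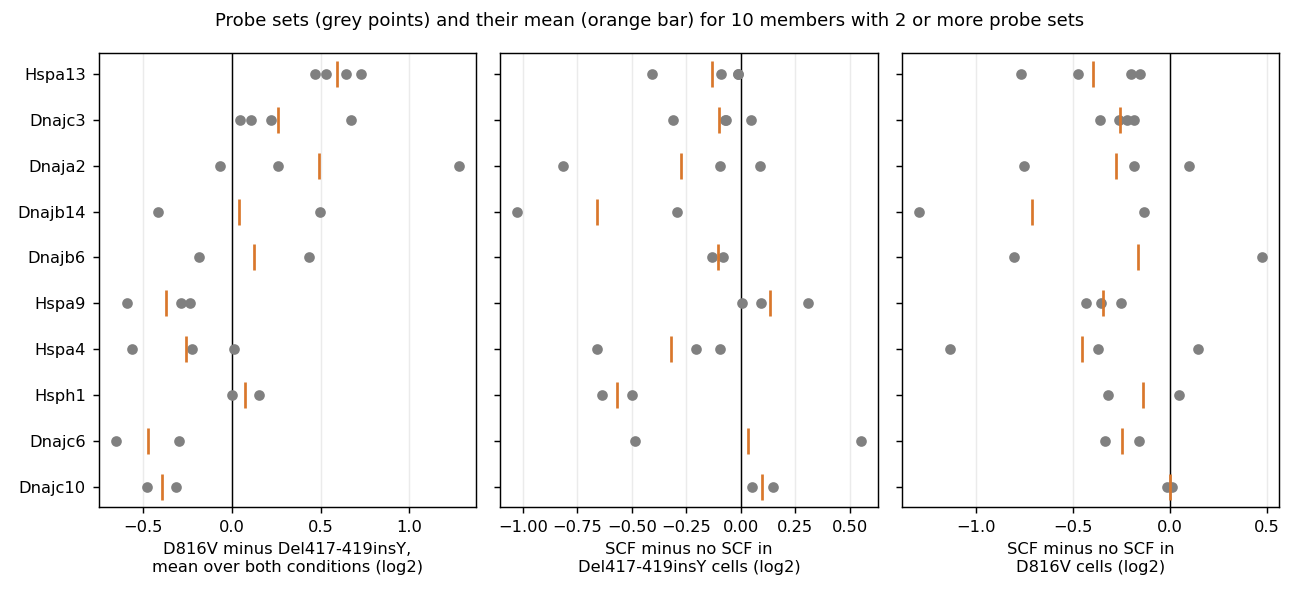
Values of single probe sets (grey) and their mean (orange bar) for 10 members with 2 or more probe sets: the difference between the lines, and the SCF response in each line, all in log2. The 4 probe sets of Hspa13 lie from 0.47 to 0.73 between the lines, while those of Dnaja2, at -0.06, 0.26 and 1.28, and of Dnajb14 lie on both sides of 0.

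Of the uncalled members, 4 proline isomerases, all higher in D816V cells, are given for their values, chosen after these were seen. Other members of their families were lower, among them the called Fkbp7 and Ppic. The uncalled Fkbp5, Fkbp1a, Ppie and Ppif were lower too, at -0.39, -0.37, -0.185 and -0.16. Fkbp1a was called lower with the highest-mean probe set and when the prior could vary with the mean relative value. Ppib, cyclophilin B of the ER, was at -0.07 and 0.14 in Del417-419insY cells and at 0.17 and 0.49 in D816V cells, with both probe sets near its mean difference of 0.30. Fkbp2, an ER proline isomerase, was at 0.14 and 0.14 against 0.34 and 0.69, a difference of 0.38. Fkbp8, a mitochondrial and ER membrane partner of Bcl2, and Fkbp15 differed by 0.24 and 0.27. None of the 4 higher ones passed in the limma fit as deposited, where their adjusted p-values ran from 0.079 to 0.14. All 4 were called higher with centred arrays, Ppib and Fkbp15 with quantile normalization, and Fkbp15 alone with cyclic loess.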

How the data were processed

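RNA of 4 cultures was hybridised to Affymetrix mouse arrays, 1 array per culture. The deposited log2 values come from RMA according to the submitters' processing notes; its version and the level each probe set was set against are not given in the sources used here, and the log base is taken from RMA. The table keeps 10861 probe sets, by a filter that is not given, where the array has 45101, so every count is limited to these; no detection values were used, so signal over background could not be examined. Platform annotation gave 9633 probe sets 1 symbol, 264 several and 964 none. Symbols did not change through the gene ID in RefSeq (GRCm38.p6); 11 IDs had no match. A gene's value is the mean of its probe sets.

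limma 3.58.1 in R 4.3.3 was fitted as ~ genotype + SCF to 6404 genes, with eBayes and Benjamini-Hochberg adjustment over all of them, two-sided; it leaves 1 residual degree of freedom per gene (prior 4.1 degrees of freedom, SD 0.127). The script was tested on simulated data: false calls were within the nominal share with noise drawn from the fitted prior and above it with each gene's own fitted SD as noise, so the adjusted p-values may be too small. Members and lists were chosen with earlier results of these data known. Genes named by rule were the called members (up to 10 per direction) and the 5 highest and 5 lowest mean SCF responses of 1 sign in both lines. The rule also took the 6 largest differences between responses and the largest member of a family not yet named. From each list it took the 2 highest and 2 lowest called genes. Hspa8, Hsph1, Dnajb1, Dnaja3, Dnajc3, Hsp90b1 and Dnajb6 were named after their values were seen. So were Ppib, Ppie, Ppif, Fkbp1a, Fkbp2, Fkbp5, Fkbp8, Fkbp15, other TRiC subunits and further list genes. Erythroid (1 higher and 4 lower of 5), megakaryocyte (0 and 3 of 3), granulocyte and monocyte (1 and 1 of 5), lymphoid (1 and 0 of 1), fibroblast and endothelial (0 and 0 of 2) and cell cycle (0 and 2 of 8) genes were checked too. Alternatives were cyclic loess, quantile normalization, centring, other summaries of probe sets, other priors, models without 1 term, and other thresholds.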

Additional observations from a re-analysis of the deposited data

Results flagged for a closer look

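For 10 of the named genes the SCF response had opposite signs in the 2 lines; this was so in 24 of 62 members. The sign was shared in 61.3% of members and in 65.5% of all genes, so opposite signs were about as common among all genes. With 1 array per group the sign rests on 1 difference per line, and the difference between the lines was not tested. D816V minus Del417-419insY, the difference between the responses was 0.62 for Dnajc12, whose responses were -0.50 in Del417-419insY and 0.12 in D816V cells. It was 0.60 for Hspb11 (-0.19 and 0.42), 0.47 for Dnajc16 (-0.01 and 0.46) and 0.34 for Dnajc15 (-0.03 and 0.32). Bag2 had 0.21 (-0.21 and 0.004) and Dnajb11 0.042 (-0.03 and 0.01). Hspa9 had -0.48 (0.13 and -0.35), Cct4 -0.35 (0.26 and -0.09), Dnajc6 -0.28 (0.03 and -0.25) and Dnajc10 -0.10 (0.10 and -0.002).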

How the results depend on the processing

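Members called higher and lower in D816V cells numbered 16 and 4 with cyclic loess, 16 and 5 with quantile normalization, and 17 and 4 with median centring, against 9 and 8 as deposited; over all genes 25.4%, 23.8% and 26.9% were then higher and 19.7%, 21.7% and 20.3% lower. All 9 genes called higher kept their call under these 3 scalings, and 3, 4 and 4 of the 8 called lower. With SCF, the members past 1.5-fold upward and downward were 13 and 2, 12 and 2, and 13 and 2. Shares of all genes at this fold were not computed under these scalings. The difference of Ppic was -2.63 and -4.23 and that of Hspb11 1.91 and 1.14 after quantile normalization and cyclic loess, against -1.13 and 2.57. Both methods treat values of different probe sets as comparable, so these sizes are uncertain on relative values. The median difference over members was 0.14 without and 0.18 with SCF after cyclic loess, 0.11 with SCF after quantile normalization and 0.081 after centring, against 0.002 and -0.07 as deposited, while the median of all genes with SCF moved from -0.14 to 0.04, -0.002 and 0.01. For the SCF response in D816V cells the member median was 0.051 after cyclic loess and 0.054 after quantile normalization, and 1 and 0 members were 1.5-fold or more lower. In Del417-419insY cells 2 members were 1.5-fold or more higher after cyclic loess and after centring, and 1 lower after centring. Centring gave 4 members called for SCF and the highest-mean probe set 2. With that probe set 5 (Del417-419insY) and 4 (D816V) members were lower with SCF by 1.5-fold. Shares of all genes were not computed for the SCF counts under these settings, so members cannot be set against them. Without the SCF term 3 genes were higher (Hspb11, Dnajc12 and Pdia5) and 2 lower (Ppic and Bag2), with 10.8% and 14.3% of all genes. At an adjusted p under 0.01 there were 2 and 2. Shares of all genes were computed neither there nor at 2-fold. At 2-fold, 1 member was higher and 1 lower without SCF, 2 and 1 with SCF, and 0 in each direction for SCF in either line. Beyond the scalings, their causes were not tested. No named gene's called difference changed sign under these alternatives, while the member median with SCF did. The 25th percentile filter was not run, since the values are relative and hold no level to filter on. No paired analysis was possible because each group has 1 array and the labels carry no replicate numbers. Leaving out an array would remove a whole group.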
